A study of Mus musculus with 4 samples.

Results

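The genes described here are 45 genes of the Wnt pathway: 10 Wnt ligands, 2 factors of ligand release, 10 Frizzled and LRP receptors, 3 alternative receptors, 3 Dishevelled genes, 5 genes of the destruction complex, 4 genes of beta-catenin and its TCF partners, 4 secreted antagonists, 2 genes of the R-spondin branch and 2 Naked inhibitors. They were found by matching the RefSeq accession of each array probe to the gene symbol, which gave 58 probes for the 45 genes among 39429 gene probes, or among 19751 named genes. The cells were C2C12 myoblasts, an established mouse line derived from satellite cells of thigh muscle. The palmitate cultures received palmitate at 0.1 mmol/l for 48 h in medium with 5% FBS, and the control cultures received the same ethanol and albumin without palmitate. All were harvested on day 3 of proliferation, and a control label that reads 10% HS differs from the 5% FBS of the protocol. RNA of 4 palmitate cultures (Cy5) and 4 control cultures (Cy3) was hybridised in pairs to 4 two-colour Agilent arrays on the same slide. No array had the dyes exchanged, so the part of the dye and the part of palmitate in a ratio cannot be told apart.

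Wnt proteins are lipid-modified ligands that leave the cell with the help of Porcn, which attaches the lipid, and Wls, which carries them to the membrane. When a Wnt binds a Frizzled receptor with LRP5 or LRP6, Dishevelled is recruited and the complex of Axin, Apc, Gsk3b and casein kinase 1 stops marking beta-catenin for breakdown, so that beta-catenin can act with TCF/LEF factors on target genes. In muscle the pathway is known for its part in the specification of myoblasts, in the self-renewal of satellite cells and in the restraint of fat formation by Wnt10b.

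Promoter sequences of 5 members are shown, that of Wnt11 because it holds the TCF/LEF motif and those of Wnt10b, Wls, Gsk3b and Ctnnb1 because these genes were among the members with an unadjusted p under 0.05 below. Each is the stretch of 250 bases before the start of the gene, in RefSeq's record on GRCm38.p6, written 5' to 3' along the gene. Capitals mark the core motif of TCF/LEF factors, ATCAAAG on either strand (CTTTGAT on the other strand), which stands in that of Wnt11 alone. Wnt11 lies on the plus strand at chr7:98834862-98835111, Wnt10b on the minus strand at chr15:98778151-98778400, Wls on the plus strand at chr3:159839400-159839649, Gsk3b on the plus strand at chr16:38088751-38089000 and Ctnnb1 on the plus strand at chr9:120933150-120933399.
Wnt11: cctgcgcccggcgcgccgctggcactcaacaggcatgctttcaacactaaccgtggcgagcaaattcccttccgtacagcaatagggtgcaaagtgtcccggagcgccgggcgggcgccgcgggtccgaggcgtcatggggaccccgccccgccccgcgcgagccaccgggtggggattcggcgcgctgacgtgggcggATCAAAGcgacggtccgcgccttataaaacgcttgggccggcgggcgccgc
Wnt10b: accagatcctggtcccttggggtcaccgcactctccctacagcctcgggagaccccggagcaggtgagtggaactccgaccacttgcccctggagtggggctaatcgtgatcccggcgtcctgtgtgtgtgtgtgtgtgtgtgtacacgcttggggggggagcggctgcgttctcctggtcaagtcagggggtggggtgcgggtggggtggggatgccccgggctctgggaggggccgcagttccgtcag
Wls: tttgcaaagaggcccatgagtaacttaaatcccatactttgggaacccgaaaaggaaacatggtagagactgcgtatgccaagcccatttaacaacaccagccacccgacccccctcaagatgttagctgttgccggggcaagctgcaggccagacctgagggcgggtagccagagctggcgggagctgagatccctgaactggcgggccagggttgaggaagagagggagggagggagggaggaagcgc
Gsk3b: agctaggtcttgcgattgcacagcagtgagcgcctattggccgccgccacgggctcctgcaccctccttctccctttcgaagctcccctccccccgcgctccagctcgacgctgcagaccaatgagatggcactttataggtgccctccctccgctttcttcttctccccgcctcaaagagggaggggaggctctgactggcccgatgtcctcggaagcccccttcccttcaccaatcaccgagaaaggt
Ctnnb1: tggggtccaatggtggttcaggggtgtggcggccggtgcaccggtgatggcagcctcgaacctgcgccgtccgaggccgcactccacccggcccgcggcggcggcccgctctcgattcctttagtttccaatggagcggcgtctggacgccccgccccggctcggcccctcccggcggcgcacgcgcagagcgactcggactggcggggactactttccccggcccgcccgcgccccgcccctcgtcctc
RefSeq windows were used for 29 of the 45 members, 37 windows in all, since some genes have several starts. Any member windows on a chromosome that was set aside were not used, while the count over all windows kept that chromosome. The core stood in 2 of the 37 windows (5.41%), of Wnt11 at position -51 and of an inner start of Wnt5b at position -71, counted backwards from the gene start. Among all 32851 windows of the same length, 1053 (3.21%) held it. Wnt11 and Wnt5b had mean log2 ratios of -0.06 and 0.20 and did not pass an unadjusted p of 0.05. The member windows had a median GC content of 66.4%, against 52.4% over all windows.

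Most of the pathway was measurable in these cells. Of the 45 members, 39 were tested, having a probe whose signal in 1 or both channels was well above background on each of the 4 arrays, and the brightest such probe stands for the gene. Wnt2, Wnt2b, Ror1, Rspo3 and Nkd1 did not reach this limit on any array, whichever the channel, and Wnt7a did so on 1 palmitate array only, so these 6 have no fold. Fzd8 and Znrf3 were close to this limit, being above background in the control channel on 3 of the 4 arrays. Axin2 passed on all arrays but was about as dim, with normalized log2 control signals of 6.53 to 7.08, against 6.64 to 6.87 for Fzd8. Another probe of Axin2 was not above background on any array in either channel, so its ratios rest on 1 dim probe. Wnt9a had no usable spot on replicate 3.

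Myoblast markers were present, and so were some markers of other cell types. All 10 listed myoblast markers, such as Myod1 and Myf5, were above background on all palmitate arrays and 9 on all control arrays, while Adipoq, Lep, Plin1, Cfd and Retn of the 7 adipocyte markers and Cdh5 and Tek of the 5 endothelial markers were never above it. Fabp4 of the adipocyte list and Kdr and Pecam1 of the endothelial list were above background on all arrays in both channels. Kdr, a receptor of vascular growth factor, had log2 ratios of 0.98, -1.33, -1.08 and -1.28 (adjusted p = 0.305 in limma with all arrays, 0.000575 without replicate 1), so its arrays split in sign as those of Tcf7l2 and Dvl3 below. Another probe of Kdr was not above background on any array in either channel, so the presence and the ratios of Kdr rest on its brighter probe alone. Some probes of immune genes were (4 of 6 on all control arrays, 3 on all palmitate arrays), and a part of other cells in the results was not tested. At an unadjusted p under 0.05, 1 myoblast marker was lower and 4 were higher with palmitate, and of 8 tested markers of differentiated muscle 2 were higher, Myog at a log2 ratio of 0.37 and Myh3 at 0.38, while 0 of either list passed the adjusted p in limma. Without replicate 1, 2 myoblast markers and 2 markers of differentiated muscle were higher and 0 lower at an adjusted p under 0.05, and both tested endothelial markers and 1 of 4 tested immune markers were lower. The part of these shifts in the results was not tested. Between 57.6 and 70.7% of gene probes were well above background over the arrays and channels. Replicate 1 stood apart from the other arrays. Over all tested probes its log2 ratios correlated with those of replicates 2, 3 and 4 at r = 0.06, -0.15 and -0.22, while replicates 2, 3 and 4 correlated with one another at r = 0.72 to 0.85 (a correlation over probes that share a slide and a dye orientation). The counts of each list are therefore also given without it. Because it was picked by these same ratios, leaving it out tends to narrow the spread. The p-values without it thus tend to be too small and are given as description only.

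No member passed the test across all probes. With the log2 ratio of palmitate to control averaged over the arrays and tested against 0 in limma, 0 of 39 tested members had a Benjamini-Hochberg adjusted p under 0.05, and the percentage over all 13712 tested genes was 0% as well. At an unadjusted p under 0.05, 5 members were lower in palmitate (12.8%), where 13.9% of all tested genes were lower, and 5 were higher (12.8%), where 14.2% were higher. The methods' t-test gave 3 lower and 0 higher members at that threshold and 0 after adjustment, where 7.48% of all tested probes were lower and 5.49% higher unadjusted. In limma the members' shares thus lay close to those of all genes. An exact two-sided sign-flip test over 4 arrays cannot go below p = 0.13. The RNA came from whole cultures, so a lower level in each cell and fewer cells that express a gene cannot be told apart.

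The members as a group were centred near 0. Their median log2 ratio was -0.0048, -0.08, 0.03 and -0.0089 on replicates 1 to 4, a mean of -0.02 ± 0.05 (SD, n = 4 arrays), and that of all tested genes was 0.0080 ± 0.016. Without replicate 1 the members' median was -0.02 ± 0.06 (n = 3). The mean was below 0 for 21 members and above 0 for 18. Among the 38 members with a value on every array, Wnt10a, Porcn, Fzd3, Lrp6, Dkk2 and Dkk3 were below 0 on all 4, which is 15.8% against 16.0% of all genes, and Wnt5a, Wls, Fzd1, Fzd4, Fzd6 and Ryk were above 0 on all 4, again 15.8% against 16.9%. When the dyes were centred on the median or not normalized, the median of all tested probes moved to 0.45 and 0.83. Relative to that median, the signs of Porcn, Dkk2, Dkk3 and Wnt5a flipped, while the 10 members with an unadjusted p under 0.05 kept theirs.

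**Figure D1:**
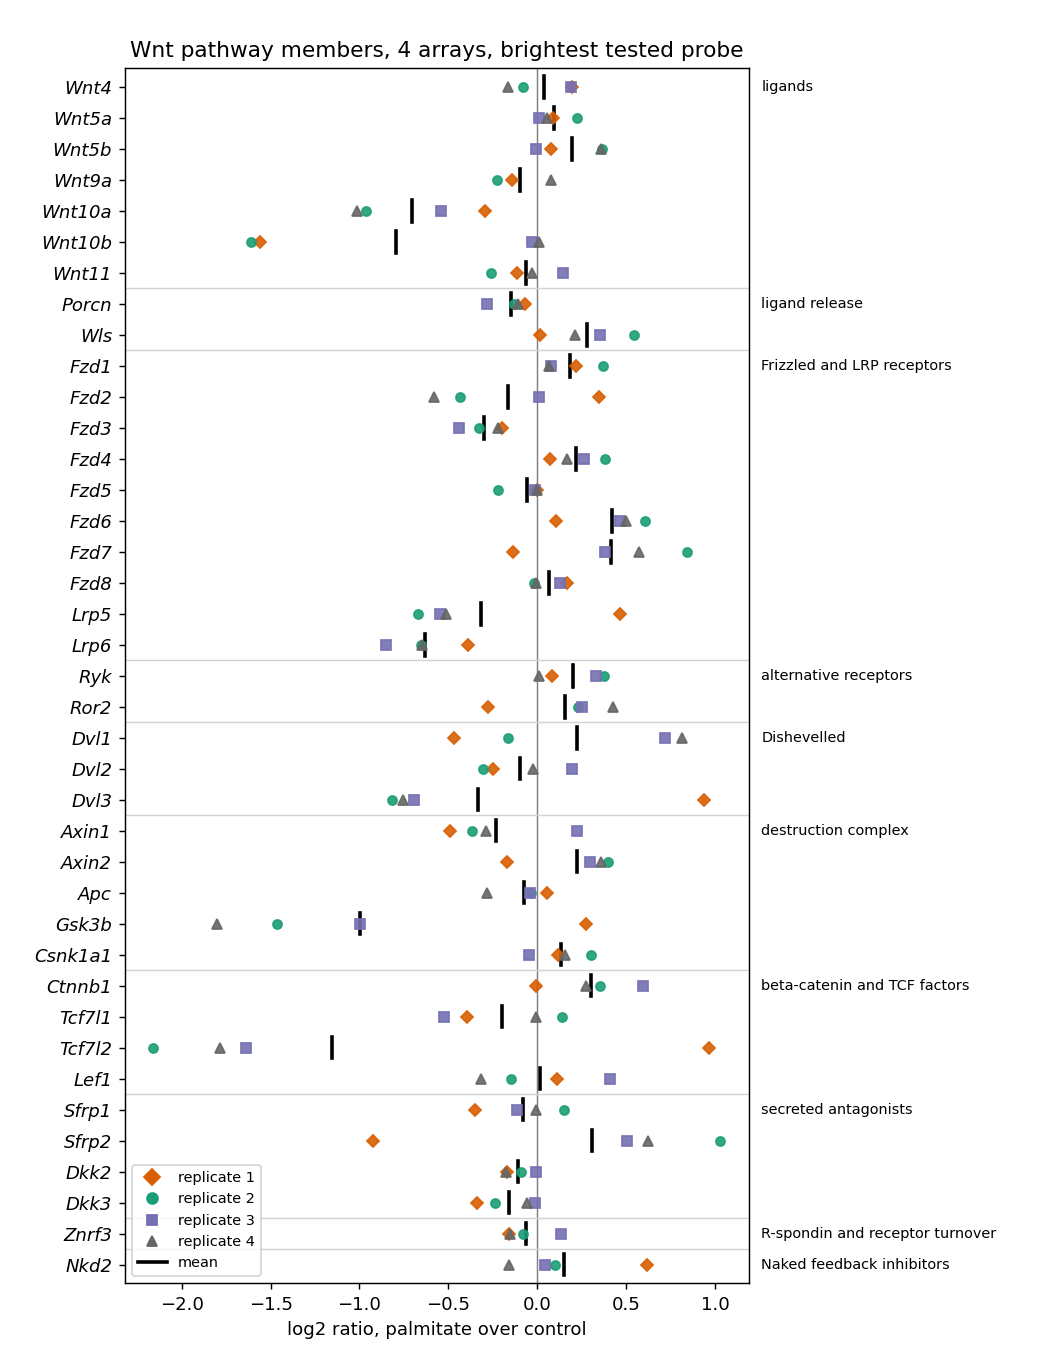
Log2 ratio of palmitate over control (horizontal axis) for the 39 tested members, grouped by role, with 1 point per array and a black bar at the mean. Lrp6 and Wnt10a lie left of 0 on all arrays, Fzd6 lies right of 0 on all arrays, and replicate 1 lies on the other side of 0 from the other arrays for Tcf7l2, Dvl3, Lrp5 and Sfrp2.

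Among the 7 tested ligands of the member list, the 2 members of the Wnt10 pair had the lowest means. Wnt1, a ligand outside that list, had a lower mean of -0.84 ± 1.2 (SD, n = 4, adjusted p = 0.247 in limma). It stood at 0.92 on replicate 1 and at -1.44, -1.35 and -1.50 on the others. Wnt10a, a ligand of the beta-catenin branch, had log2 ratios of -0.30, -0.97, -0.54 and -1.01 on replicates 1 to 4. It was lower with palmitate in all 4 arrays, with the least difference on replicate 1. The mean was -0.70 ± 0.35 (SD, n = 4), a fold of 0.614, with an adjusted p of 0.0918 in limma. Wnt10b, which restrains adipogenesis and favours myogenic fate in myoblasts, had log2 ratios of -1.56, -1.61, -0.03 and 0.01. Its arrays fell into 2 pairs, with a loss of about the same size on replicates 1 and 2 and no difference on replicates 3 and 4. The mean of -0.80 ± 0.91 (n = 4, adjusted p = 0.184) therefore describes no single array. Without replicate 1 it was -0.54 ± 0.92 (n = 3, adjusted p = 0.215). In the control channel the normalized log2 signal of Wnt10b was 10.14 and 10.03 on replicates 1 and 2 and 10.68 and 10.55 on replicates 3 and 4, and in the palmitate channel it was 8.58, 8.42, 10.65 and 10.57, so the pairs differed mainly in the palmitate channel. The other 5 tested ligands, Wnt4, Wnt5a, Wnt5b, Wnt9a and Wnt11, had means between -0.09 and 0.20 and single arrays between -0.26 and 0.36.

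Of the release factors, Wls had ratios above 0. This carrier of Wnt proteins to the cell surface had log2 ratios of 0.02, 0.54, 0.35 and 0.21, a mean of 0.28 ± 0.22 (n = 4, adjusted p = 0.169). All 4 were above 0, although replicate 1 was nearly at 0. Porcn, the acyltransferase that loads the lipid, had a mean of -0.15 with arrays between -0.28 and -0.07.

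Receptor genes lay on both sides of 0. Among the Frizzled genes, which encode the membrane receptors of the Wnts, Fzd4, Fzd6 and Fzd7 were higher and Fzd3 was lower at an unadjusted p under 0.05, and the coreceptor gene Lrp6 was lower. Fzd6, better known for planar polarity in hair follicles and skin, gave log2 ratios of 0.10, 0.61, 0.46 and 0.50. It was above 0 on all arrays and had a mean of 0.42 ± 0.22 (n = 4, adjusted p = 0.103), a fold of 1.34. Fzd7, the receptor through which Wnt7a acts on satellite cells, gave -0.14, 0.85, 0.38 and 0.57, with a mean of 0.42 ± 0.41 (n = 4, adjusted p = 0.173). Replicate 1 was the only array below 0. Fzd4, also the receptor of norrin, gave 0.07, 0.38, 0.26 and 0.17, with a mean of 0.22 ± 0.13 (n = 4, adjusted p = 0.181) and no array below 0.

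Lrp6, which forms the receptor complex with Frizzled, had log2 ratios of -0.39, -0.65, -0.85 and -0.65. All arrays were below 0 and close to one another, and the mean was -0.63 ± 0.19 (n = 4, adjusted p = 0.0918), a fold of 0.645 and, with Wnt10a, the lowest adjusted p among the members. Fzd3, a receptor of the planar polarity branch in axon growth, gave -0.20, -0.33, -0.44 and -0.22, with a mean of -0.30 ± 0.11 (n = 4, adjusted p = 0.114). It too was below 0 on every array. Lrp5, the other LRP coreceptor, gave 0.47 on replicate 1 and -0.67, -0.55 and -0.52 on the others, so its mean of -0.32 ± 0.53 (n = 4, adjusted p = 0.339) joined arrays of opposite sign. Fzd1, Fzd2, Fzd5 and Fzd8 had means between -0.16 and 0.18. Of the alternative receptors, the pseudokinase Ryk had a mean of 0.20 ± 0.18 (n = 4), above 0 on all arrays, and the tyrosine kinase receptor Ror2, a receptor of Wnt5a, had a mean of 0.16 with arrays between -0.27 and 0.43.

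**Figure D2:**
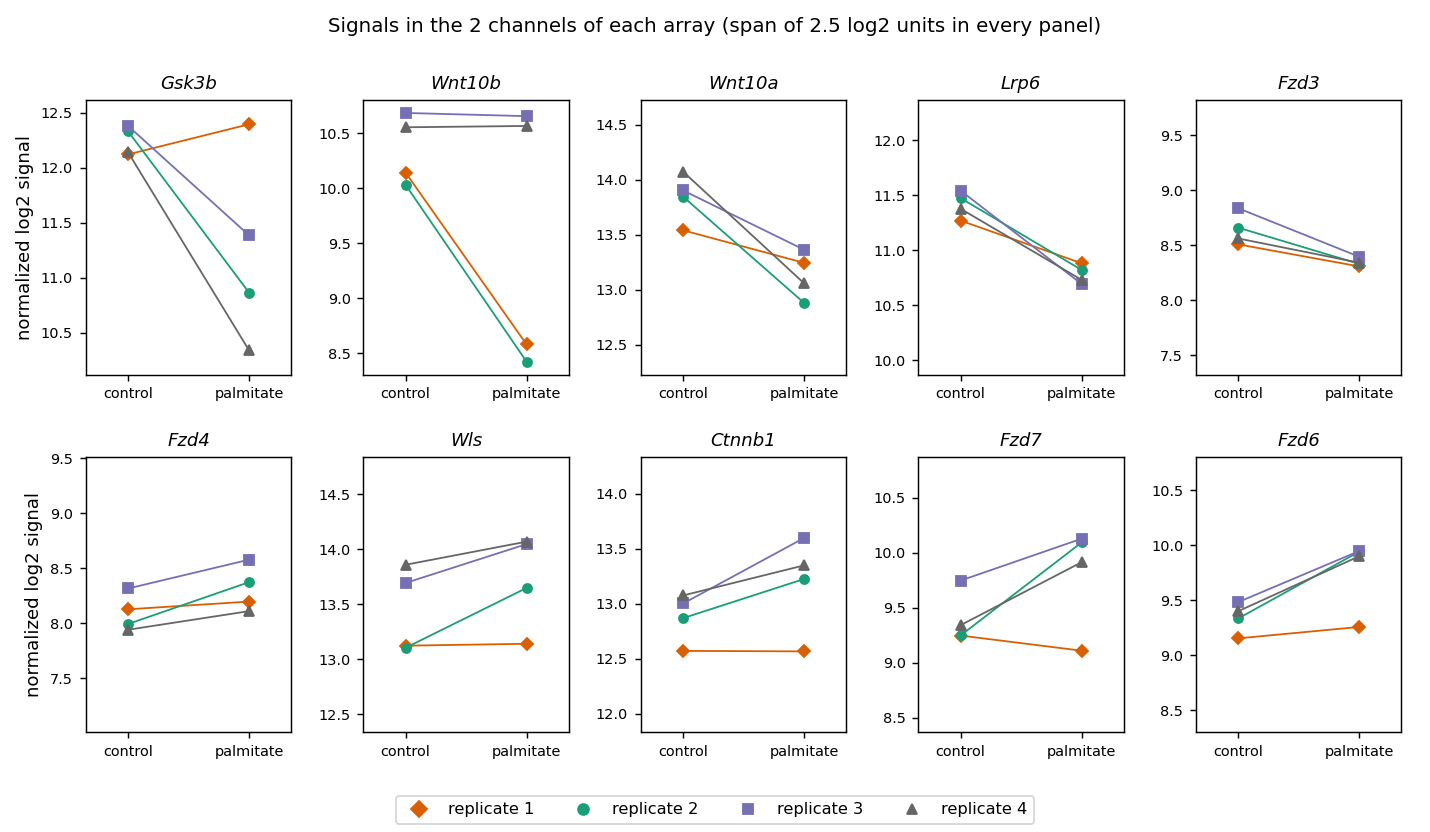
Normalized log2 signal in the control and palmitate channel (vertical axis, with the same span in each panel) of the 10 members with an unadjusted p under 0.05, with 1 line per array. The lines of Lrp6, Wnt10a and Fzd3 slope down on all arrays, that of Gsk3b slopes up on replicate 1 only, and Wnt10b slopes down steeply on replicates 1 and 2 and is nearly level on replicates 3 and 4.

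Inside the cell, the Dishevelled genes, whose proteins pass the signal on from Frizzled, lay on both sides of 0, and none passed an unadjusted p of 0.05. Dvl1 had a mean of 0.23 ± 0.64 and Dvl3 one of -0.33 ± 0.85 (n = 4 each). Dvl1 was at -0.47 and -0.16 on replicates 1 and 2 and at 0.72 and 0.82 on replicates 3 and 4, while Dvl3 was at 0.94 on replicate 1 and between -0.82 and -0.69 on the others. Dvl2 had a mean of -0.10.

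In the destruction complex the largest difference was that of Gsk3b, the kinase that marks beta-catenin for breakdown. Its brightest probe had log2 ratios of 0.27, -1.47, -0.99 and -1.80, a mean of -0.997 ± 0.91 (n = 4, adjusted p = 0.134), a fold of 0.501. Replicate 1 was above 0 and the other arrays far below it. Other probes of the gene did not share this, as given below. Axin1, the scaffold of the complex, had a mean of -0.23 ± 0.31, and Axin2, a scaffold that is itself a target of beta-catenin, had a mean of 0.22 ± 0.26, which was below the median of all probes when the dyes were centred on the median (by -0.24). Apc and Csnk1a1 had means of -0.08 and 0.13.

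Ctnnb1, which encodes beta-catenin, gave log2 ratios of -0.0048, 0.36, 0.60 and 0.27. It was at 0 on replicate 1 and higher on the others, with a mean of 0.31 ± 0.25 (n = 4, adjusted p = 0.163), a fold of 1.24. Tcf7l2, a partner of beta-catenin on DNA, had the lowest mean of all members, -1.15 ± 1.43 (n = 4, adjusted p = 0.204). Replicate 1 stood at 0.97 and the others at -2.16, -1.64 and -1.78, so the spread over the arrays exceeded the mean. Tcf7l1 and Lef1, its relatives, had means of -0.20 and 0.02.

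None of the secreted antagonists passed an unadjusted p of 0.05, and neither did Znrf3 or Nkd2. Sfrp2, a secreted antagonist that binds Wnts, was at -0.93 on replicate 1 and at 1.03, 0.51 and 0.62 on the others, with a mean of 0.31 ± 0.85 (n = 4, adjusted p = 0.542). Sfrp1, Dkk2 and Dkk3 had means between -0.16 and -0.08. Znrf3, a ligase that removes Frizzled from the membrane and is itself held back by R-spondins, had a mean of -0.06, and Nkd2, a Dishevelled-binding inhibitor, had a mean of 0.15 with 0.62 on replicate 1.

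Several members had more than 1 tested probe, and these did not always agree in direction. This held for 7 members, and no 2 probes of a gene had opposite signs with each an unadjusted p under 0.05. For Gsk3b, the other 2 probes had means of 0.22 ± 0.29 and -0.15 ± 0.17 (n = 4 each), against -0.997 at the brightest. For Lrp6 the other probe had a mean of 0.04 ± 0.11, with arrays between -0.04 and 0.21, and for Fzd7 it had -0.11 ± 0.30. The differences of Gsk3b, Lrp6 and Fzd7 thus rest on 1 probe each. The other probe of Lrp6 was dim, with normalized log2 control signals of 6.93 to 7.29, against 11.27 to 11.54 at the brightest. The 2 probes of Fzd7 were about equally bright, at 9.25 to 9.75 and 9.28 to 9.75, so brightness hardly set them apart. For Tcf7l2 the 2 other probes had means below 0 as well, at -0.55 ± 0.44 and -0.16 ± 0.14 (unadjusted p = 0.0161 and 0.119 in limma). They did not share the size of the brightest probe. Over replicates 2 to 4 they were at -0.74 and -0.12, against -1.86. On replicate 1 the dimmest stood at -0.29, where the brightest stood at 0.97. The probes of Fzd2, at -0.16 and 0.16, and of Csnk1a1, at 0.13 and -0.18, differed in sign, and those of Nkd2 were at 0.15 and 0.0014. Which transcripts each probe reads was not tested.

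**Figure D3:**
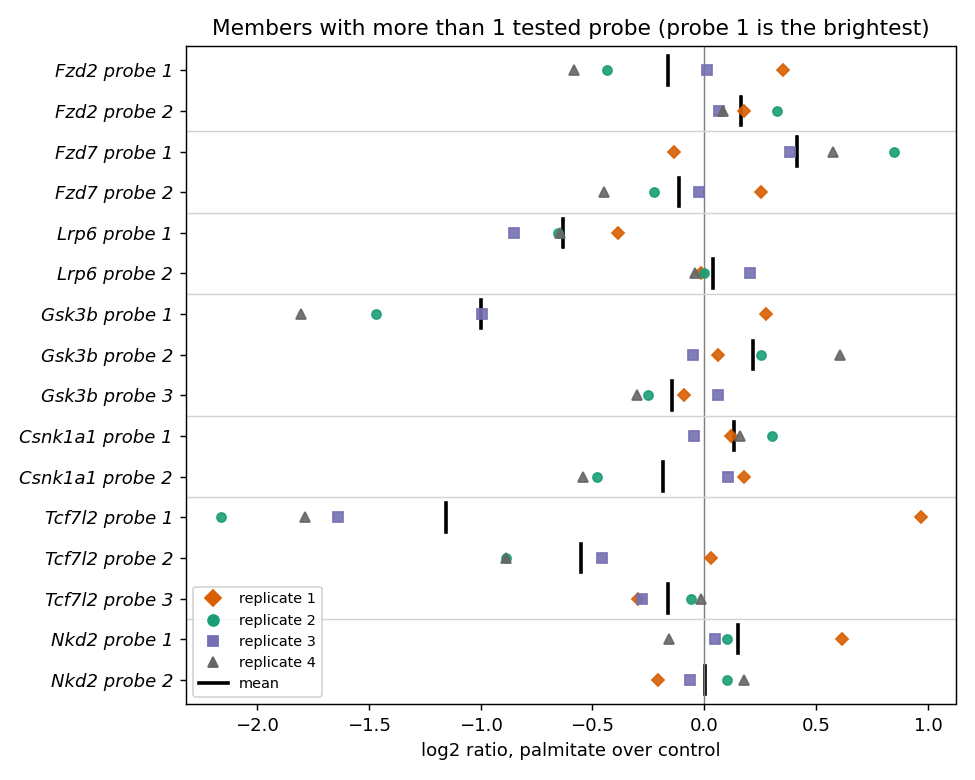
Log2 ratio of palmitate over control for each tested probe of the 7 members with several, with 1 point per array and a black bar at the mean. The mean of probe 1 of Lrp6, Gsk3b and Fzd7 lies apart from those of the other probes of the same gene, though for Gsk3b and Fzd7 replicate 1 of probe 1 lies among the points of another probe, while the 3 probes of Tcf7l2 have means below 0.

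Leaving out replicate 1 changed the count of members past the test. Since that array was chosen by its disagreement in these same ratios, the adjusted p-values without it tend to be too small. They describe the other arrays and give no independent evidence of a difference. With the other 3 arrays, 7 members were lower at an adjusted p under 0.05 (17.9%), namely Tcf7l2, Gsk3b, Dvl3, Lrp6, Wnt10a, Lrp5 and Fzd3, against 14.1% of all tested genes. Another 7 were higher (17.9%), namely Fzd6, Sfrp2, Fzd7, Axin2, Ctnnb1, Wls and Ror2, against 16.3% of all tested genes. Of these, Axin2 had the lowest signals. The members' share was again near that of all genes. In those 3 arrays the mean log2 ratio was -1.86 ± 0.27 for Tcf7l2 (adjusted p = 0.000304), -1.42 ± 0.40 for Gsk3b (adjusted p = 0.00184), -0.76 ± 0.06 for Dvl3 (adjusted p = 0.00219) and -0.58 ± 0.08 for Lrp5 (adjusted p = 0.00487), all in limma with n = 3. On the other side it was 0.52 ± 0.07 for Fzd6, 0.72 ± 0.28 for Sfrp2 and 0.41 ± 0.17 for Ctnnb1, with adjusted p-values of 0.00647, 0.00666 and 0.0218. Leaving out replicate 2, 3 or 4 left 0 members past the test, with lowest adjusted p-values of 0.429, 0.277 and 0.315.

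Of the members called in those 3 arrays, Wnt10a, Lrp6, Fzd3, Fzd6 and Wls had the same sign on replicate 1, while Tcf7l2, Gsk3b, Dvl3, Lrp5, Sfrp2, Fzd7, Axin2, Ctnnb1 and Ror2 had the opposite sign there. Over all 39 members, replicate 1 was opposite in sign to the mean of the other arrays for 16 (41.0%), and over all tested genes for 47.2%. Over the members its log2 ratios correlated with those of replicates 2, 3 and 4 at r = -0.12, -0.36 and -0.44, against 0.75 to 0.85 among the latter (39 members on arrays of the same slide).

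**Figure D4:**
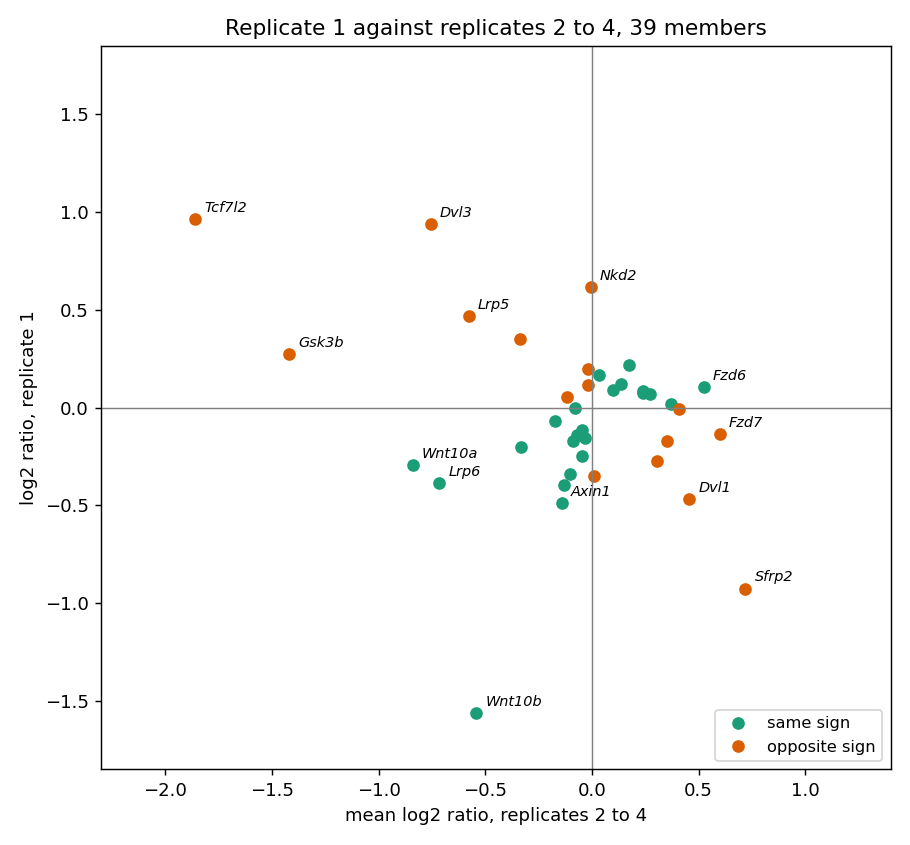
Log2 ratio on replicate 1 (vertical axis) against the mean of replicates 2, 3 and 4 (horizontal axis), with 1 point for each of the 39 tested members. The 16 members in orange differ in sign, with Tcf7l2, Dvl3, Gsk3b and Lrp5 at the upper left and Sfrp2 at the lower right, while Wnt10a, Lrp6 and Wnt10b lie at the lower left.

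The rest of the pathway was covered by a list of 108 other genes on the array, of which 84 were tested. At an unadjusted p under 0.05, 4 were lower (4.76%) and 10 higher (11.9%), both below the 13.9% and 14.2% of all tested genes, and 0 had an adjusted p under 0.05 in limma. Without replicate 1, of 83 tested, 7 were lower (8.43%) and 13 higher (15.7%) at an adjusted p under 0.05, against 14.1% and 16.3% of all tested genes. With all arrays, the lower ones were the corepressor Tle1 at -0.89 ± 0.62, Ctnnbip1, which keeps beta-catenin from TCF, at -0.45 ± 0.13, the coactivator Bcl9l at -0.36 ± 0.24 and the Apc-binding Amer1. The higher ones with the lowest p were Prickle1, of the planar polarity branch, at 0.82 ± 0.32, the corepressor Ctbp2 at 0.57 ± 0.16, Ppp3ca, the catalytic subunit of calcineurin, at 0.47 ± 0.07, and the coreceptor Ptk7 at 0.73 ± 0.39 (SD, n = 4 each). The other 6 were Csnk1g1, Ppp2ca, Rhoa, Daam1, Cby1 and Nlk, with means between 0.25 and 0.45. By branch, 4 of 26 tested genes of the planar polarity and calcium branch were higher (15.4%, near the 14.2% of all genes) and 0 lower at this unadjusted threshold, and of 20 nuclear components 3 were higher and 3 lower (15% each). At an adjusted p under 0.05 without replicate 1, 6 of the 26 were higher (23.1%) and 1 lower (3.85%). Of the nuclear components 2 were higher (10%) and 3 lower (15%), against 16.3% and 14.1% of all tested genes. Without replicate 1, Tle1 stood at -1.17 ± 0.31, Ctnnbip1 at -0.51 ± 0.07, Ptk7 at 0.89 ± 0.28 and Prickle1 at 0.78 ± 0.37 (n = 3), with adjusted p-values of 0.00196, 0.00712, 0.00360 and 0.00931 in limma. The lowest adjusted p-values of this list in those arrays were those of Wnt1 and Lrp4. Their means were -1.43 ± 0.08 and 1.66 ± 0.33, with adjusted p-values of 0.000263 and 0.00068 in limma. On replicate 1 both had the opposite sign, at 0.92 and -0.79.

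Known targets of beta-catenin and TCF were spread to both sides. Of 39 listed targets 32 were tested, 16 with a mean below 0 and 16 above, with a median log2 ratio of 0.01 ± 0.04 over the arrays (SD, n = 4). The lists overlap, so some genes are counted more than once. Of the tested targets, Axin2, Lef1 and Znrf3 are also members, and Tcf7, Notum and Apcdd1 are also among the other pathway genes. At an unadjusted p under 0.05, 2 were lower (6.25%) and 3 higher (9.38%), both below the 13.9% and 14.2% of all tested genes. The lower ones were Jun, a subunit of the AP-1 factor, at -0.51 ± 0.48 and the nuclear receptor gene Ppard at -0.20 ± 0.03. The higher ones were Ccn5 at 0.37 ± 0.16, the adhesion molecule gene Nrcam at 0.43 ± 0.29 and the ephrin receptor gene Ephb3 at 0.35 ± 0.24, and 0 of the 32 passed the adjusted p in limma. All 5 had the same sign on every array. Without replicate 1, 2 of 32 targets were lower (6.25%) and 6 higher (18.8%) at an adjusted p under 0.05, against 14.1% and 16.3% of all tested genes.

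**Figure D5:**
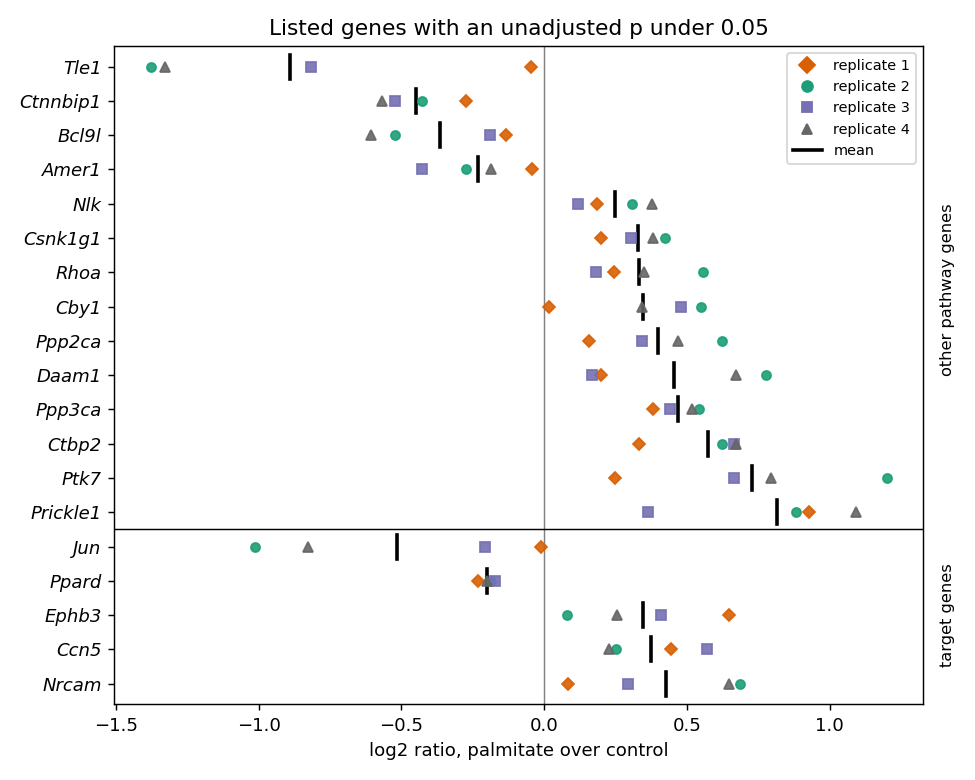
Log2 ratio of palmitate over control for the 14 other pathway genes and, under the line, the 5 target genes with an unadjusted p under 0.05, with 1 point per array and a black bar at the mean. All points of a gene lie on the same side of 0, and most of those of replicate 1 are the closest to 0 among the pathway genes.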

How the data were processed

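RNA of 4 control and 4 palmitate cultures was measured on 4 arrays. Per spot, the authors deposited uncorrected intensity values, namely median signals of the spot and of its local background. The processed signals and log ratios deposited by the authors (intensity, log10 and log2 values from Agilent Feature Extraction 10.7.3.1) were used as alternatives. The deposited table of log2 ratios equals the processed ratios to within 3.02e-06. Probes were named through RefSeq accessions (26055 of 39429).

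On replicate 4 a few local backgrounds, up to 7632 in the control and 161990 in the palmitate channel against medians of 33 and 40, raised the normexp values of the whole array: negative control spots had a median of 382 and 1220, against 63.5 to 70.6 on the other arrays. Local backgrounds with the scanner software's outlier flags were therefore replaced by the median of the others, after which these spots lay between 63.2 and 74.5 on all arrays. This was chosen after seeing the data. Background was then corrected by normexp (offset 50), dyes by loess within each array, control and outlier spots having weight 0 in limma 3.58.1 (with statmod 1.5.0 in R 4.3.3). Spots were averaged by probe. A probe was tested where each of the 4 arrays had it well above background in the same channel, 1 or both (24169, 61.3%), the mean log2 ratio against 0, with limma and Benjamini-Hochberg adjustment over all of them. Normalized signals given per channel are log2 values after these steps. Each array pairs 1 control with 1 palmitate culture through the ratio, and the fit without the pairing was an alternative. The pipeline was tested on simulated data. The number of arrays limits the precision.

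The members and lists were chosen with earlier results of these data known. Members with an unadjusted p under 0.05 are given by array, the others with a mean of at least 0.2 in size by mean and SD, some also by array where the arrays differed in sign, and the rest by range. Other pathway and target genes are named at an unadjusted p under 0.05, at most 12 of each list by p, and Amer1 and Nlk were named after their values were seen. Wnt1 and Lrp4, which did not pass that p with all arrays, were likewise named after their values were seen. Alternatives changed the background, dye normalization, filters, test, source of the values, pairing, variance model, probe choice and arrays.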

Additional observations from a re-analysis of the deposited data

Results flagged for a closer look

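Of the 38 members with a value on all 4 arrays, 4 had 1 array far from the other 3, by a rule that chance alone meets in about 1 in 20. Replicate 1 was that array for 3 of the 4. The share over all tested genes was not counted, so the count says nothing particular about the members. Tcf7l2 had a log2 ratio of 0.97 on replicate 1, with the others between -2.16 and -1.64. Dvl3 had 0.94 on replicate 1, with the others between -0.82 and -0.69. Lrp5 had 0.47 on replicate 1, with the others between -0.67 and -0.52. Fzd5 had -0.22 on replicate 2, with the others between -0.01 and 0.00057, a difference of little size. Whether replicate 1 differs through the cultures, the labelling or the array was not tested.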

How the results depend on the processing

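The count of 0 members past the adjusted p held under 12 of the 14 alternatives that keep all arrays. Centring each array on its median in place of loess gave 18 members, and no dye normalization 22, all higher, where 50.2% and 55.8% of all tested probes were higher. These settings moved the median of all tested probes to 0.45 and 0.83 and that of the members to 0.448 and 0.824, and at an unadjusted p under 0.05 left 0 lower and 20 or 24 higher members. With median centring the log2 ratio turned positive for Wnt10a (0.0330), Fzd3 (0.12), Lrp5 (0.37), Lrp6 (0.0249), Dvl3 (0.0842) and Axin1 (0.40), and with no dye normalization for Wnt10a (0.41), Wnt10b (0.18), Fzd3 (0.50), Lrp5 (0.74), Lrp6 (0.40), Dvl3 (0.46), Axin1 (0.77) and Gsk3b (0.0570). Relative to the median of all probes each of these stayed below 0 (Wnt10a -0.42, Lrp6 -0.43, Fzd3 -0.33 with median centring). Under the limit that the methods set on the coefficient of variation, Gsk3b stood at 0.22, since another of its probes was then the brightest.

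At an unadjusted p under 0.05, the methods' t-test gave 3 lower and 0 higher members, the fit without the pairing (no replicate block) 1 higher, and local backgrounds as deposited 3 higher. Leaving out each array in turn gave 0 to 14 members past the adjusted p, and 3 to 8 lower and 1 to 9 higher at the unadjusted threshold. The 14 came without replicate 1. With replicate 2 left out there were 3 lower. Higher members numbered 1 without replicate 2, 3 or 4. Apart from the reversals named, the 18 members given with values kept their direction, in 217 of 232 values under the alternatives and in all 72 values with an array left out. The t-test, the fit without the pairing and the variance model used the main log2 ratios, so they could not change a direction. The processed signals and the deposited table hold the same ratios. Without loess all probes moved up, so a higher member could hardly turn, and Axin2 counts as kept though it fell below that median. Signal over background limits Wnt2, Wnt2b, Wnt7a, Ror1, Rspo3 and Nkd1, for which no difference could be measured.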
